A study of Mus musculus with 4 samples.

Results

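The miR-183 cluster is a group of 3 miRNA hairpins, Mir183, Mir96 and Mir182, which lie side by side on mouse chromosome 6 and are often called the sensory-organ cluster. Its members here are the 6 mature names of these hairpins, mmu-miR-183-5p, mmu-miR-183-3p, mmu-miR-96-5p, mmu-miR-96-3p, mmu-miR-182-5p and mmu-miR-182-3p (written below without the species prefix), found by exact name among the 1900 miRNA names of the deposited count table. The libraries are small RNA sequenced after RNA immunoprecipitation for Argonaute2 (AGO2), the protein that carries a mature miRNA to its target RNAs, from freshly dissected olfactory bulb of C57BL/6 mice. The GFP-AGO2 group (n = 2, replicates 1 and 3) came from mice given the viral vector LV.PGK.GFP-AGO2, and the Control group (n = 2, replicates 1 and 3) from sham-injected mice. Tissue was taken 8 weeks after injection in both groups. By its name the vector carries a GFP-tagged AGO2 driven by PGK, a promoter that is active in many cell types. The series text speaks of newborn neurons, the tissue label of the whole bulb. No source used here gives the antibody, the injection site, an input RNA or the age of the mice. It is therefore not known whether Control RNA was carried by the mice's own AGO2 or is background of the procedure, nor whether both groups recovered RNA from the same cells. Each fold change below compares what was recovered in the immunoprecipitates, and a difference in recovery cannot be told apart from one in the level of a miRNA in the tissue. None of the sources says that the libraries within a group are from different animals, so the p-values below measure the spread between libraries, and this may be technical.

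The 3 hairpins are cut from a common primary transcript and so are usually made together. Their 5p arms begin with closely related seeds, the bases 2 to 8 that pair with target messages, and are known to repress overlapping sets of targets. In the mouse they are abundant in photoreceptors, in the hair cells of the inner ear and in other sensory cells, and a change in the seed of miR-96 causes progressive hearing loss. The olfactory bulb, the tissue sampled here, receives the axons of the olfactory sensory neurons of the nose.

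The mature sequences show how alike the 5p arms are. They are from RefSeq (GRCm38.p6), are written 5′ to 3′ and have the seed in capitals, and all 6 members were matched by name at the positions the count table gives.
miR-183-5p: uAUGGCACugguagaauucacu
miR-96-5p: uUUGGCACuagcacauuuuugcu
miR-182-5p: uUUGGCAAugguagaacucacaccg
miR-183-3p: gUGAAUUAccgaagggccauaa
miR-96-3p: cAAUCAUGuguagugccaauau
miR-182-3p: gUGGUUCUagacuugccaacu
Counted from 1 at the 5′ end, miR-96-5p differs from miR-182-5p within the first 8 bases only by A8C (the base of miR-182-5p first), and miR-183-5p differs from miR-96-5p there only by U2A (the base of miR-96-5p first). Laid side by side from the first base, miR-183-5p and miR-182-5p are identical at 18 of 22 positions, miR-183-5p and miR-96-5p at 13 of 22, and miR-96-5p and miR-182-5p at 12 of 23. All 3 carry UGGCA at bases 3 to 7, which 5 of the 1679 mature mouse names in the RefSeq table do. Of the other names with that run, miR-7022-5p was listed at 0 in all 4 libraries. The remaining name, miR-1271-5p, has the seed of miR-96-5p (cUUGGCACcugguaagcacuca, chr13:54578152-54578173, plus strand). It is not among the names of the count table, so it has no value here. The 3p arms share no seed with each other. MiR-3475-5p, which has the seed of miR-96-3p, had 3 and 0 counts in GFP-AGO2 replicates 1 and 3 and 0 and 1 in Control replicates 1 and 3.

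In the hairpins, here with the 5p and 3p arms in capitals, the arms stand on either side of the loop. All lie on the minus strand of chromosome 6, within a stretch of 3820 bases.
Mir183, chr6:30169668-30169737: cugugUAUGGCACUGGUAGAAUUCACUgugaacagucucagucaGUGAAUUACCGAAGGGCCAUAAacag
Mir96, chr6:30169446-30169551: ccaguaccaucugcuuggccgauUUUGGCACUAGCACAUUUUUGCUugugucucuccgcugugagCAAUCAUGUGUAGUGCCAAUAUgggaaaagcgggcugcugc
Mir182, chr6:30165918-30165992: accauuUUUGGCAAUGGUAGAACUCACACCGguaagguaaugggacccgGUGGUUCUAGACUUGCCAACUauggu
The gap is 116 bases from Mir183 to Mir96 and 3453 bases from Mir96 to Mir182. GENCODE M21 annotates only the 3 miRNA genes over this stretch, whereas RefSeq places them inside the long non-coding RNA gene Mirc35hg (chr6:30158640-30174125). Whether they fall in an exon or an intron of that gene is not given in the tables used. Each of the 6 members has 1 position in the count table and overlaps no other listed name.

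**Figure D1:**
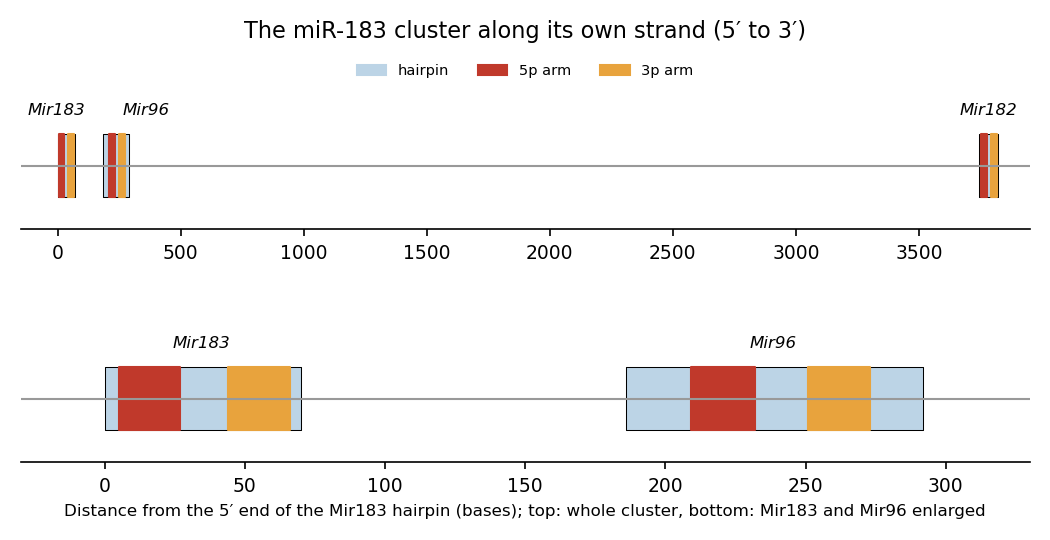
Map of the miR-183 cluster, drawn to scale in bases from the 5′ end of the Mir183 hairpin along the strand that is transcribed. Boxes are the hairpins, with 5p arms in red and 3p arms in orange; Mir183 and Mir96 are 116 bases apart and Mir182 lies 3453 bases beyond Mir96.

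The libraries held 1858354 to 2809758 miRNA counts in GFP-AGO2 and 673916 to 1006861 in Control, with 828 to 843 names detected in each GFP-AGO2 library and 714 to 804 in each Control library. Depth thus moved with the group, and its part in the results below was not tested. Neuron-enriched miRNAs were present throughout, with all 7 listed names detected, including miR-124-3p. The 3 oligodendrocyte names (miR-219a-5p, miR-219a-2-3p and miR-338-3p) were listed at 0 in every library, but each overlaps another name in the table, and whether reads were lost there in counting was not tested. Over the whole table, edgeR's quasi-likelihood test with Benjamini-Hochberg adjustment called 79 of 457 tested miRNAs higher in GFP-AGO2 and 78 lower. Leaving out Control replicate 1 gave 47 higher and 43 lower calls, and leaving out Control replicate 3 gave 49 and 53.

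The libraries of vector-injected and sham-injected mice were compared for the proportion of each miRNA recovered. The miR-183 cluster took a far smaller part of the GFP-AGO2 libraries. Its 6 members made up 1.267% of the miRNA counts of GFP-AGO2 replicate 1 and 2.409% of replicate 3, against 12.20% and 11.91% in Control replicates 1 and 3. The exact 95% (Clopper-Pearson) intervals were 1.254 to 1.28% and 2.387 to 2.431% for the GFP-AGO2 libraries, and 12.14 to 12.26% and 11.83 to 11.98% for the Control libraries. These intervals cover counting error only and leave out the spread between libraries. PCR copies are counted as separate reads, so the intervals may be too narrow even for counting error. The group means were 1.838% ± 0.807 in GFP-AGO2 and 12.05% ± 0.207 in Control (SD, n = 2 each). The groups did not overlap, and the difference of -10.22 percentage points was larger than the spread in either group. With 2 libraries against 2, an exact two-sided permutation test cannot give less than p = 0.333, and it gave that value. In bulk tissue, fewer cells of a type, less of the RNA per cell and RNA recovered from other cells cannot be told apart, and a share also moves when other miRNAs change. With the 5p arms of the abundant let-7 family left out of the total, the share was 2.516% and 4.405% in GFP-AGO2 replicates 1 and 3, against 19.89% and 20.04% in Control. With the miR-200 family left out instead, it was 1.284% and 2.475% in GFP-AGO2 against 13.82% and 13.45% in Control. The groups lay apart under either total, which is given as a description. The family itself took 1.34 to 2.69% of GFP-AGO2 and 11.5 to 11.7% of Control counts, so leaving it out could only widen the gap.

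Of the 6 members, 5 had enough counts for the test across all miRNAs, and all 5 fell. By that test 17.1% of all tested miRNAs were called lower and 17.3% higher. In all 5 members both GFP-AGO2 libraries lay below both Control libraries in CPM (the count relative to the library's TMM-scaled total), as they did in 35.2% of all miRNAs tested. The members' log2 fold changes, GFP-AGO2 over Control, lay between -3.31 and -2.79 with a median of -2.97, while the median of all 457 was -0.01. Ordered from the lowest log2 fold change, the members took places 17, 19, 23, 27 and 28 of 457. The filter asks for enough counts in only 2 libraries, so a name can enter the test through Control. The minimum count of 10 applies at the median depth and rises in deeper libraries. MiR-182-3p had 7 counts in GFP-AGO2 replicate 1, the deepest library, and so was under it there, against 76 and 27 in Control. Its entry thus leaned on Control, and its fall is counted here as a description.

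**Figure D2:**
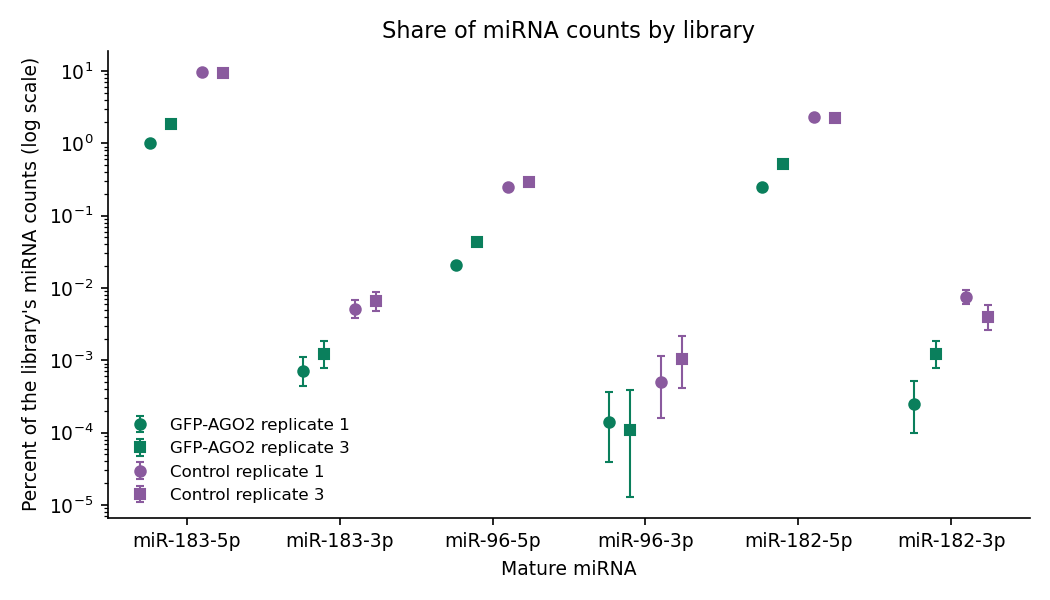
Share of each library's miRNA counts held by each member of the cluster, in percent on a log scale, with exact 95% intervals for counting error. Each GFP-AGO2 point (green) lies below both Control points (purple) of the same member, from miR-183-5p at 0.9963% and 1.842% against 9.653% and 9.356% down to the rare 3p arms.

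MiR-183-5p, which has given the cluster its name, was its most abundant member. It had 27993 and 34237 counts in GFP-AGO2 replicates 1 and 3 and 97192 and 63050 in Control replicates 1 and 3, so that the deeper libraries held fewer of its reads. Among all names it ranked 19th and 12th in the GFP-AGO2 libraries and 3rd in both Control libraries. Scaled, it had 9421 and 16799 CPM in GFP-AGO2 against 101031 and 104085 CPM in Control. The Control libraries were close together and the GFP-AGO2 libraries apart, with replicate 3 the higher. The means were 13110 ± 5217 CPM in GFP-AGO2 and 102558 ± 2159 CPM in Control (SD, n = 2 each). Its log2 fold change was -2.97 (SE 0.30, edgeR adjusted p = 0.00353), a 7.82-fold lower value in the GFP-AGO2 immunoprecipitates.

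MiR-182-5p, whose seed differs from that of miR-96-5p in its last base, was second in abundance. Its level was 2350 and 4744 CPM in GFP-AGO2 replicates 1 and 3, against 23915 and 24979 CPM in Control. Here too replicate 3 was the higher of the GFP-AGO2 libraries and the groups lay well apart, at means of 3547 ± 1692 CPM in GFP-AGO2 and 24447 ± 752 CPM in Control (SD, n = 2 each). The log2 fold change was -2.79 (SE 0.35, edgeR adjusted p = 0.00568), or -3.38 without GFP-AGO2 replicate 3. With the counts left unscaled, which raised the median of all miRNAs by 1.68, it was -1.195 and was not called (adjusted p = 0.0595).

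MiR-96-5p, the member tied to inherited hearing loss, was the least abundant of the 5p arms, although its hairpin is next to Mir183. It had 196 and 396 CPM in GFP-AGO2 replicates 1 and 3, against 2597 and 3272 CPM in Control, so that its counts of 583 and 808 in the GFP-AGO2 libraries stood against 2498 and 1982 in Control. The means of 296 ± 142 CPM in GFP-AGO2 and 2934 ± 477 CPM in Control (SD, n = 2 each) lay further apart than the spread in either group. The fall was 9.92-fold, with a log2 fold change of -3.31 (SE 0.38, edgeR adjusted p = 0.005). It had the lowest log2 fold change of the 5 tested members, and without GFP-AGO2 replicate 3 the value was -3.90.

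The 3p arms are the strands that are mostly discarded when a 5p arm is loaded, and they were rare in every library. MiR-183-3p had 20 and 23 counts in GFP-AGO2 replicates 1 and 3 and 52 and 45 in Control. At 6.73 and 11.3 CPM in GFP-AGO2 against 54.1 and 74.3 CPM in Control, its log2 fold change was -2.83 (SE 0.43, edgeR adjusted p = 0.00778). With the counts left unscaled it was -1.17 and was not called (adjusted p = 0.135).

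MiR-182-3p had 7 and 23 counts in the GFP-AGO2 libraries and 76 and 27 in the Control libraries. It was the most uneven of the tested members within its groups. GFP-AGO2 replicate 3 and Control replicate 3 had nearly the same raw count, at unequal depth. Scaled, it had 2.36 and 11.3 CPM in GFP-AGO2 against 79.0 and 44.6 CPM in Control, with a log2 fold change of -3.24 (SE 0.78, edgeR adjusted p = 0.0281). Without Control replicate 1 it lost its call (-2.71, adjusted p = 0.112), and leaving out GFP-AGO2 replicates 1 and 3 in turn gave -2.46 and -4.68.

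MiR-96-3p had 4 and 2 counts in GFP-AGO2 replicates 1 and 3 and 5 and 7 in Control replicates 1 and 3, too few for the test. As shares these were 0.0001424% and 0.0001076% of the GFP-AGO2 counts, against 0.0004966% and 0.001039% of the Control counts. The exact 95% intervals of both GFP-AGO2 libraries, with upper ends of 0.0003645% and 0.0003888%, overlapped that of Control replicate 1, which began at 0.0001612%, but lay below that of Control replicate 3, which ran from 0.0004176 to 0.00214%. With no filter on low counts its log2 fold change was -2.48 (SE 1.31, edgeR adjusted p = 0.214), so a difference between the groups did not pass the test at this depth.

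**Figure D3:**
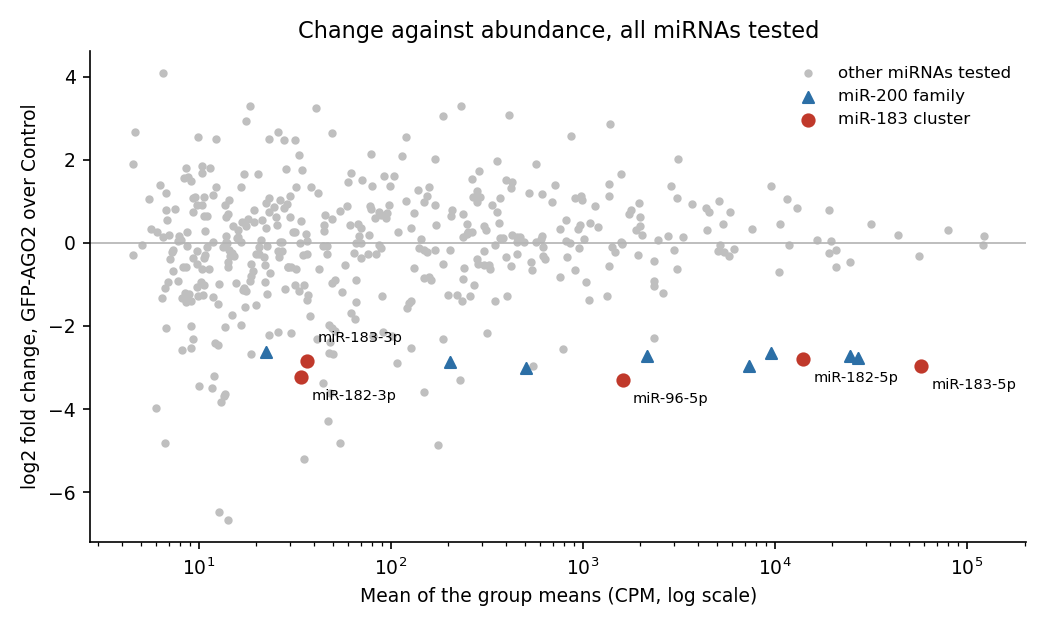
Log2 fold change, GFP-AGO2 over Control, against mean abundance in CPM on a log scale for the 457 miRNAs tested. The cluster (red) lies between -3.31 and -2.79 at low and high abundance alike, beside the miR-200 family (blue), while the median of all miRNAs is -0.01.

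Each 5p arm held a nearby part of the cluster's counts in both groups. MiR-183-5p made up 78.7% and 76.5% of the cluster's counts in GFP-AGO2 replicates 1 and 3, against 79.1% and 78.6% in Control, and the groups overlapped. MiR-182-5p took 19.6% and 21.6% in GFP-AGO2 and 18.7% and 18.9% in Control. MiR-96-5p took 1.64% and 1.81% in GFP-AGO2 and 2.03% and 2.47% in Control. For miR-182-5p and miR-96-5p the groups did not overlap, with miR-182-5p a slightly larger and miR-96-5p a smaller part of the cluster in GFP-AGO2.

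Ratios within a library do not depend on depth or scaling, and they put a size on this. The ratio of miR-182-5p to miR-183-5p was 0.25 and 0.282 in GFP-AGO2 replicates 1 and 3, against 0.237 and 0.24 in Control. On the log2 scale (with a pseudocount of 0.5 on each count) the groups differed by 0.16, beside SDs of 0.126 in GFP-AGO2 and 0.014 in Control, and by 0.066 without GFP-AGO2 replicate 3. The ratio of miR-96-5p to miR-183-5p was 0.0208 and 0.0236 in GFP-AGO2 against 0.0257 and 0.0314 in Control, a log2 difference of -0.36 beside SDs of 0.127 and 0.205, which was -0.21 without Control replicate 3. Both comparisons gave the smallest p that the exact two-sided permutation test allows here (p = 0.333), so the design could not call an unequal change of the members.

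The 5p arm held nearly all counts of each hairpin in both groups. The 3p arm made up 0.0714% and 0.0671% of the Mir183 counts in GFP-AGO2 replicates 1 and 3, against 0.0535% and 0.0713% in Control. It made up 0.681% and 0.247% of the Mir96 counts in GFP-AGO2 and 0.2% and 0.352% in Control, and 0.1% and 0.237% of the Mir182 counts in GFP-AGO2 and 0.329% and 0.178% in Control. For all 3 hairpins the groups overlapped, and the exact two-sided permutation test on the log2 ratio of 3p to 5p gave p = 0.667 each time. The log2 differences were 0.18 for Mir183, 0.76 for Mir96 and -0.61 for Mir182. That of Mir183 turned to -0.026 without Control replicate 1. Leaving out GFP-AGO2 replicates 1 and 3 in turn moved that of Mir96 to 0.10 and 1.42, and that of Mir182 to -0.016 and -1.195. Without Control replicates 1 and 3 they were 0.37 and 1.15 for Mir96, and -0.17 and -1.04 for Mir182.

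**Figure D4:**
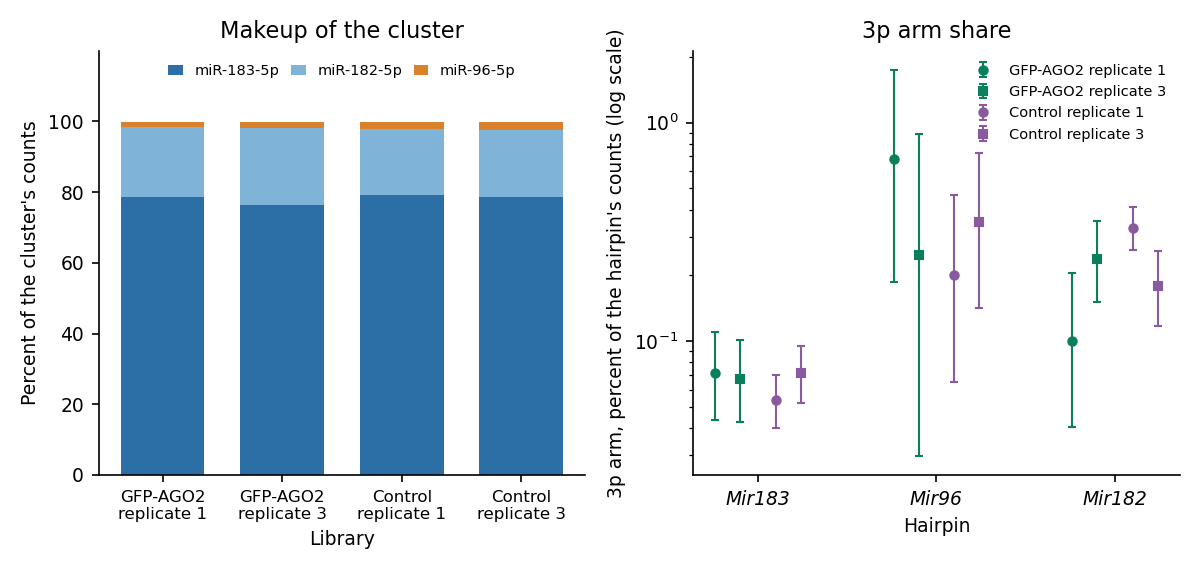
Left, the makeup of the cluster as the percent of its counts from each 5p arm, by library; right, the 3p arm as a percent of each hairpin's counts on a log scale, with exact 95% intervals for counting error. MiR-183-5p holds 76.5% to 79.1% of the cluster in all 4 libraries, and the 3p shares of GFP-AGO2 (green) and Control (purple) overlap for each hairpin.

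The miRNAs most like miR-183-5p were sought outside the cluster, by the distance over the 4 libraries between log2 CPM values centred on each miRNA's own mean, among 238 miRNAs with a mean of at least 50 CPM. The nearest were miR-429-3p at a distance of 0.163, miR-200a-3p at 0.203, miR-6538 at 0.23, miR-200b-3p at 0.244 and miR-200a-5p at 0.265. For comparison, miR-182-5p stood at 0.201, miR-96-5p at 0.427, miR-183-3p at 0.457 and miR-182-3p at 0.927. All but miR-6538 belong to the miR-200 family, epithelial miRNAs that restrain Zeb1 and Zeb2 and are also abundant in olfactory tissue. MiR-6538 had 77.4 and 173 CPM in GFP-AGO2 replicates 1 and 3, against 933 and 1019 CPM in Control. Its log2 fold change was -2.97 (SE 0.40, edgeR adjusted p = 0.00625). Without GFP-AGO2 replicate 1 the value was -2.497, and without GFP-AGO2 replicate 3 it was -3.654. All 5 nearest miRNAs were picked for their likeness to miR-183-5p over the same 4 libraries, so their falls are given as a description.

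The miR-200 family has other seeds, at positions on chromosomes 4 and 6, and its most abundant arms have these sequences, again with the seed in capitals.
miR-200a-3p, chr4:156054911-156054932, minus strand: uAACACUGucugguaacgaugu
miR-200b-3p, chr4:156055685-156055706, minus strand: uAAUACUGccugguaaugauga
All 8 tested names of the family fell too, of 10 listed, with a median log2 fold change of -2.75. Of all tested miRNAs, 17.1% were called lower. The rarest of the 8, miR-141-5p, had 7.40 and 4.91 CPM in GFP-AGO2 replicates 1 and 3 against 39.5 and 38.0 CPM in Control. Its entry in the test thus leaned on Control. MiR-200a-3p had 4848 and 9174 CPM in GFP-AGO2 replicates 1 and 3 and 46819 and 48279 CPM in Control, a log2 fold change of -2.76 (SE 0.32, edgeR adjusted p = 0.00519). MiR-200b-3p, at 4456 and 8601 CPM in GFP-AGO2 against 42472 and 43585 CPM in Control, had -2.72 (SE 0.33, edgeR adjusted p = 0.00527). Like the cluster, both were higher in replicate 3 of the GFP-AGO2 libraries. With the counts left unscaled neither was called (-1.17 and -1.13, adjusted p = 0.0587 and 0.0685), and 3 of the 8 family members were, as were 3 of the 5 in the cluster. That fit called 20 of all 457 miRNAs lower and 264 higher.

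**Figure D5:**
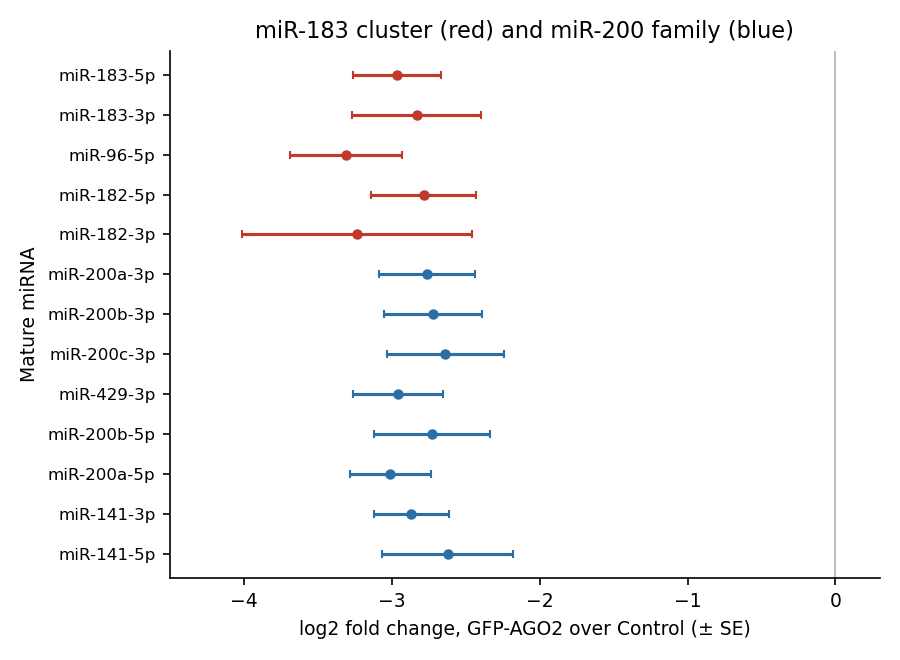
Log2 fold changes, GFP-AGO2 over Control, with their standard errors (SE) for the 5 tested members of the miR-183 cluster (red) and the 8 of the miR-200 family (blue). All lie below 0, the cluster at a median of -2.97 and the family at -2.75.

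The cluster and the family held similar parts of each library. The counts of the cluster were 0.945 and 0.894 times those of the miR-200 family in GFP-AGO2 replicates 1 and 3, and 1.04 times in both Control libraries, a ratio chosen after the values were seen. The log2 difference was -0.18, beside SDs of 0.0566 in GFP-AGO2 and 0.00484 in Control, at the smallest p of the exact two-sided permutation test (p = 0.333). Among the 78 miRNAs with a mean of at least 1000 CPM, 8 had a log2 fold change of -2.5 or lower, a limit also chosen after seeing the values. They were the 3 5p arms of the cluster and 5 names of the miR-200 family. The next lowest of that mean, miR-143-3p, had -2.29. Less abundant names also lay at or below -2.5, among them miR-375-3p (-2.56) and miR-6538 (-2.97), so this set rests on both limits.

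Marker miRNAs of other cell types were examined in the same fit, in which 17.1% of all tested miRNAs were called lower and 17.3% higher. The lists are short, so a count of 1 or 2 calls is close to these shares and is given as a description. Epithelial miRNAs outside the miR-200 family took 0.0685 to 0.0951% of the counts in GFP-AGO2 and 0.18 to 0.199% in Control, and 2 of 6 tested names fell (median log2 fold change -1.06). MiR-375-3p, a miRNA of endocrine and epithelial cells, had 160 and 303 CPM in GFP-AGO2 replicates 1 and 3 against 1312 and 1402 CPM in Control (log2 fold change -2.56, SE 0.33, edgeR adjusted p = 0.00579; not called with the counts left unscaled, at -0.95). The other fall was that of miR-31-5p. MiR-192-5p had 293 and 258 CPM in GFP-AGO2 against 259 and 203 CPM in Control (log2 fold change 0.25, SE 0.19, edgeR adjusted p = 0.37). The falls numbered 0 with the counts left unscaled, where 20 of all 457 miRNAs were called lower.

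Of the vessel, blood and immune names, 3 of 5 tested fell (median log2 fold change -2.29), and 0 with the counts left unscaled. Of all tested miRNAs, 17.1% were called lower, and 20 of 457 with the counts left unscaled. With so short a list the count is a description. The list took 0.0359 to 0.169% of the counts in GFP-AGO2 and 0.357 to 0.489% in Control. MiR-143-3p, a miRNA of smooth muscle, had 267 and 1325 CPM in GFP-AGO2 replicates 1 and 3 against 4438 and 3350 CPM in Control and was not called (log2 fold change -2.29, SE 0.74, edgeR adjusted p = 0.0637). The falls were those of miR-146a-5p (-2.17, SE 0.53, edgeR adjusted p = 0.0281), miR-150-5p and miR-451a. MiR-451a had only 0.337 and 3.93 CPM in GFP-AGO2 replicates 1 and 3, against 20.8 and 29.7 CPM in Control. It thus entered the test through Control alone. With Control replicate 1 or 3 left out 1 of the 5 was called, and miR-146a-5p then had adjusted p-values of 0.0869 and 0.0573. Leaving out GFP-AGO2 replicates 1 and 3 in turn gave -1.57 and -3.18 for miR-146a-5p, and -1.56 and -3.87 for miR-143-3p. Of the 13 names in this list, miR-126a-5p, miR-126a-3p, miR-486-5p and miR-142-3p were listed at 0 in every library, each overlapping another name. The part of these cell types in the fall of the cluster was not tested.

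Neuron-enriched names took 1.53 to 1.68% of the counts in GFP-AGO2 and 1.08 to 1.23% in Control; 2 of 7 tested rose, 1 fell and the median log2 fold change was 0.18, counts close to the shares of all miRNAs called (17.3% higher and 17.1% lower). MiR-124-3p, a neuronal miRNA with several genomic positions, had 6309 and 5277 CPM in GFP-AGO2 replicates 1 and 3 against 5618 and 7280 CPM in Control (log2 fold change -0.15, SE 0.18, edgeR adjusted p = 0.555), a value that turned to 1.59 with the counts left unscaled, where 6 of the 7 names were called higher and 0 lower, beside 264 of all 457 miRNAs higher and 20 lower. MiR-9-3p, of neural progenitors and neurons and also of several positions, rose to 4048 and 4339 CPM in GFP-AGO2, against 1514 and 2493 CPM in Control (log2 fold change 1.07, SE 0.26, edgeR adjusted p = 0.0281). Leaving out Control replicate 1 ended that call (0.80, adjusted p = 0.0906) and left none of the 7 called, and the fall, of miR-138-5p, was not called without Control replicate 1 or without Control replicate 3. Among the choroid plexus and pigment names, miR-204-5p rose (log2 fold change 0.74, SE 0.14, edgeR adjusted p = 0.0118), though not without Control replicate 1 (0.84, adjusted p = 0.0885) or 3 (0.66, adjusted p = 0.136), and miR-211-5p had 0.27 (SE 0.76, edgeR adjusted p = 0.832).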

How the data were processed

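The deposited values are whole-number counts per mature miRNA name, counted by the authors from primary alignments to mm10 over an annotation of mouse miRNAs, using featureCounts v1.4.6-p1, per the file headers. The counting command carries no strand option. Reads had passed through cutadapt and STAR, per the submitters' processing notes, in versions not given in the sources used here. Columns were tied to libraries by sample title. The libraries of a group were not copies of each other (chi-square 48060 on 576 degrees of freedom for GFP-AGO2 and 4824 on 478 for Control, a test that counts PCR copies as separate reads).

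The test was that of edgeR 4.0.16, run under R 4.3.3 (quasi-likelihood F test, TMM factors, filterByExpr at a minimum count of 10, no block for replicate number), two-sided, with p-values adjusted by Benjamini-Hochberg over all 457 miRNAs tested and a call at an adjusted p under 0.05. The script was tested on simulated data. SE is the log2 fold change over the root of F. The let-7 5p arms included miR-98-5p. Ratios used a pseudocount of 0.5. Alternatives included DESeq2 1.42.0, other scalings and filters, and leaving out each library. Named miRNAs were the members, names sharing bases 2 to 7 or 2 to 8 with a member, the 5 nearest in pattern to miR-183-5p and the 2 most abundant tested names of each list; others are said to be chosen later or complete a count. The members and lists were chosen with earlier results of these data known.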

Additional observations from a re-analysis of the deposited data

How the results depend on the processing

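The 5 tested members lay below Control in all 65 fits of a member under 13 alternatives. These fits reuse the same 4 libraries and are not separate pieces of support. With every library kept, a member lost its call only where the counts were left unscaled. With the counts left unscaled, which raised the median log2 fold change of all miRNAs by 1.68, 3 members were called; miR-183-3p (-1.169) and miR-182-5p (-1.195) were not. The counts called over all miRNAs were then 264 higher and 20 lower, with 3 in the miR-200 family, 6 of 7 neuron-enriched names higher and 0 lower, and 0 lower in the epithelial and in the vessel, blood and immune lists. Total counts alone raised that median by 0.215 and gave 100 higher and 66 lower. Under it miR-183-5p had -2.74. No filter called 118 higher of 1106 names tested. Without names at several positions, 0 neuron-enriched names were called either way, as 1 was left to test, and at a minimum count of 50, 1 epithelial name was called.

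Leaving out a library gave ranges of 47 to 94 higher and 43 to 106 lower calls over all miRNAs, 4 to 5 in the cluster and 7 to 8 in the miR-200 family. The ranges were -3.44 to -2.61 for miR-183-5p, -3.23 to -2.49 for miR-183-3p, -3.90 to -2.89 for miR-96-5p, -3.38 to -2.37 for miR-182-5p and -4.68 to -2.46 for miR-182-3p. They were 0 to 2 neuron-enriched calls higher and 0 to 1 lower, 1 to 4 epithelial falls, 1 to 4 vessel, blood and immune falls, and 0 to 1 rises among choroid plexus and pigment names. The cluster's share differed by -10.79 to -9.644 percentage points. The log2 difference in the ratio of miR-183-3p to miR-183-5p ran from -0.026 to 0.39. Fits without a GFP-AGO2 library, the fit with no filter and DESeq2 gave far smaller p-values. For miR-183-5p the adjusted p was 7.68e-26 with DESeq2 and 6.85e-05 with edgeR and a block for replicate number, against 0.00353 in the main edgeR fit. Why these differ was not tested. Without a GFP-AGO2 library the spread comes from the Control libraries alone, as the lone library is assumed to vary like them. A call from such a fit is no support.

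MiR-124-3p, which was not called, turned to 0.064 with total counts alone, 0.091 with no filter, 1.59 with unscaled counts (the last called) and 0.0093 without Control replicate 3; leaving out a library gave -0.29 to 0.0093. MiR-211-5p turned to -0.30 without Control replicate 1, in a range up to 0.99. MiR-143-3p was called with DESeq2 (-2.317), without a filter (-2.067) and under a replicate block (-2.692). The labels do not say what the shared replicate numbers mean. Deviations from the group mean correlated at -0.0606 between same-numbered libraries. With 2 libraries in a group, crossed numbers must give the same value with its sign turned (0.0606). This correlation therefore cannot show whether same-numbered libraries share a batch or a pairing. With that replicate block 79 miRNAs were called higher and 85 lower, and miR-183-5p had -3.03. The causes of these shifts were not tested. Depth limits the 3p arms, of which miR-96-3p had at most 7 counts.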

Other observations

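The nearest other names in the table on chromosome 6 stand far from the cluster and, chosen by position after the table was seen, were not called. MiR-335-5p (chr6:30741314-30741336), 571576 bases away on the side of Mir183, had 36.7 and 62.8 CPM in GFP-AGO2 replicates 1 and 3 and 41.6 and 39.6 CPM in Control (edgeR adjusted p = 0.595). MiR-129-1-3p (chr6:29022667-29022688), 1143229 bases away on the side of Mir182, had 38.0 and 39.7 CPM in GFP-AGO2 and 35.3 and 31.4 CPM in Control (edgeR adjusted p = 0.62). For miR-335-5p the GFP-AGO2 libraries lay on either side of both Control libraries, and for miR-129-1-3p they lay above them.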
